A study of Mus musculus with 4 samples.

Results

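The guanylate-binding proteins (GBPs) and immunity-related GTPases (IRGs) were followed through 10 genes of the mouse, namely Gbp2, Gbp3, Gbp5 and Gbp11 of the first family and Irgm1, Irgm2, Igtp, Iigp1, Ifi47 and Tgtp1 of the other. They were picked by name, and the array carries 12 probes for them among 55681 non-control probes, or 10 of 23345 genes with a measured symbol. RNA came from bone marrow-derived macrophages (BMDMs) of 10-week-old C57BL/6J mice, grown for 6 days with supernatant of L929 cells and then stimulated for 2 days. There were 4 cultures, each hybridized to 1 Agilent array in 1 colour. Wild-type BMDMs received IFN-γ (20 ng per ml) with LPS (100 ng per ml), called M1, or IL-4 (50 ng per ml), called M2. Another wild-type culture received IL-4 (50 ng per ml) together with Torin1 (250 nM), an inhibitor of mTOR, and BMDMs labelled p18 (2400001E08Rik) -/-, here called Lamtor1-deficient, received IL-4 (50 ng per ml) alone. In the study's methods this deletion comes from floxed alleles and a Cre expressed from the LysM locus, so it is limited to myeloid cells. Each condition was measured on 1 array, so no difference between conditions has a replicate check, and no test was possible.

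GBPs and IRGs are large GTPases that interferons, IFN-γ above all, switch on in macrophages. Both families gather on vacuoles that hold intracellular parasites and bacteria, where they help to break the membrane and expose the intruder to the cytosol, and GBPs also feed into inflammasome activation. The IRGM proteins (Irgm1, Irgm2 and Igtp, also called Irgm3) sit on the cell's own membranes and hold the effector IRGs, such as Iigp1 (Irga6), Tgtp1 (Irgb6) and Ifi47 (Irgd), in their inactive state. IFN-γ acts on promoters through gamma-activated sites (GAS) and, by way of the factor IRF1, through interferon-stimulated response elements (ISREs), and type I interferons act on ISREs.

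The promoters show which of these 2 kinds of letters lie next to each gene. RefSeq windows on GRCm38.p6, reaching from 250 bases before to 50 after the transcription start, were given for 8 of 10 members. The sequences below run from 120 bases before to 30 after the start, 5′ to 3′ in the direction of transcription. Capitals mark matches to the letters TTCNNNGAA (GAS), which read the same on both strands, or to GAAA, any 2 bases and GAAA again (ISRE) on either strand, and matches that overlap run together. They are shown because they are the stretches nearest to the start of each gene.
Gbp2 (chr3:142620543-142620692, plus strand): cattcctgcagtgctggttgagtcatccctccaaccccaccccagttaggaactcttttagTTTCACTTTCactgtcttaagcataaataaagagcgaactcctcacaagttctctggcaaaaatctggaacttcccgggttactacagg
Gbp3 (chr3:142559924-142560073, plus strand): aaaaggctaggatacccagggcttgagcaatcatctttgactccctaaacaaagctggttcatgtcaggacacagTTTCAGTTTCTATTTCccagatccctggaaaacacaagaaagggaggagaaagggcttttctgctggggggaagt
Gbp5 (chr3:142496814-142496963, plus strand): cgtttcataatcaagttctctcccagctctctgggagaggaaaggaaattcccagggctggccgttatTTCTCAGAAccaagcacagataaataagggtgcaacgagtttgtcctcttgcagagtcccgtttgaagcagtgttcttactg
Irgm1 (chr11:48871391-48871540, minus strand): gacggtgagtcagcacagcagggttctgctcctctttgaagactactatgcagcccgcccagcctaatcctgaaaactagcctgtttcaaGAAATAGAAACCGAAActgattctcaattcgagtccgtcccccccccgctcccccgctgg
Irgm2 (chr11:58214857-58215006, plus strand): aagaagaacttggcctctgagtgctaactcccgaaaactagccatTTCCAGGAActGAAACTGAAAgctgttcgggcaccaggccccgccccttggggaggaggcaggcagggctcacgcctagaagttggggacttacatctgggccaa
Igtp (chr11:58199436-58199585, plus strand): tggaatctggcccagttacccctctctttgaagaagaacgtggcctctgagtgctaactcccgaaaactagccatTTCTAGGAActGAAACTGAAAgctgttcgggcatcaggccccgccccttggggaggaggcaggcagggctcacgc
Tgtp1 (chr11:48992217-48992366, minus strand): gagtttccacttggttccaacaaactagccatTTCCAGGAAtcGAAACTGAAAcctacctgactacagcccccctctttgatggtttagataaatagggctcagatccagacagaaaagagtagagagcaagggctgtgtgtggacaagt
Ifi47 (chr11:49076467-49076616, plus strand): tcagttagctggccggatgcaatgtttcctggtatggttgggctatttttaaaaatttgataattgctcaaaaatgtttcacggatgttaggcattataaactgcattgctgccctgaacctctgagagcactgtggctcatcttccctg

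Of these 8 members, 7 held the ISRE letters within the whole window and 4 held the GAS letters, and Ifi47 held neither. Over all 32851 promoter windows, 3.44% held the ISRE letters and 8.30% the GAS letters. Gbp3 has a second RefSeq start, whose window held neither. The IRG promoters of Irgm2, Igtp and Tgtp1 share one layout, a GAS match followed by an ISRE match with 2 bases between them. Only 5 windows of 32851 (0.0152%) had this layout on either strand, those of Irgm2, Igtp, Tgtp1, Tgtp2 and Gm12185, and the latter 2 are IRG genes as well. Gbp2, Gbp3 and Irgm1 held ISRE letters without GAS letters, and in Gbp3 and Irgm1 a pair of ISRE matches overlaps. Gbp5 held GAS letters at positions -245 and -52 and ISRE letters at position -165, counted back from the start to the first base of each match. A match to these letters is a description and does not show that a factor binds there.

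**Figure D1:**
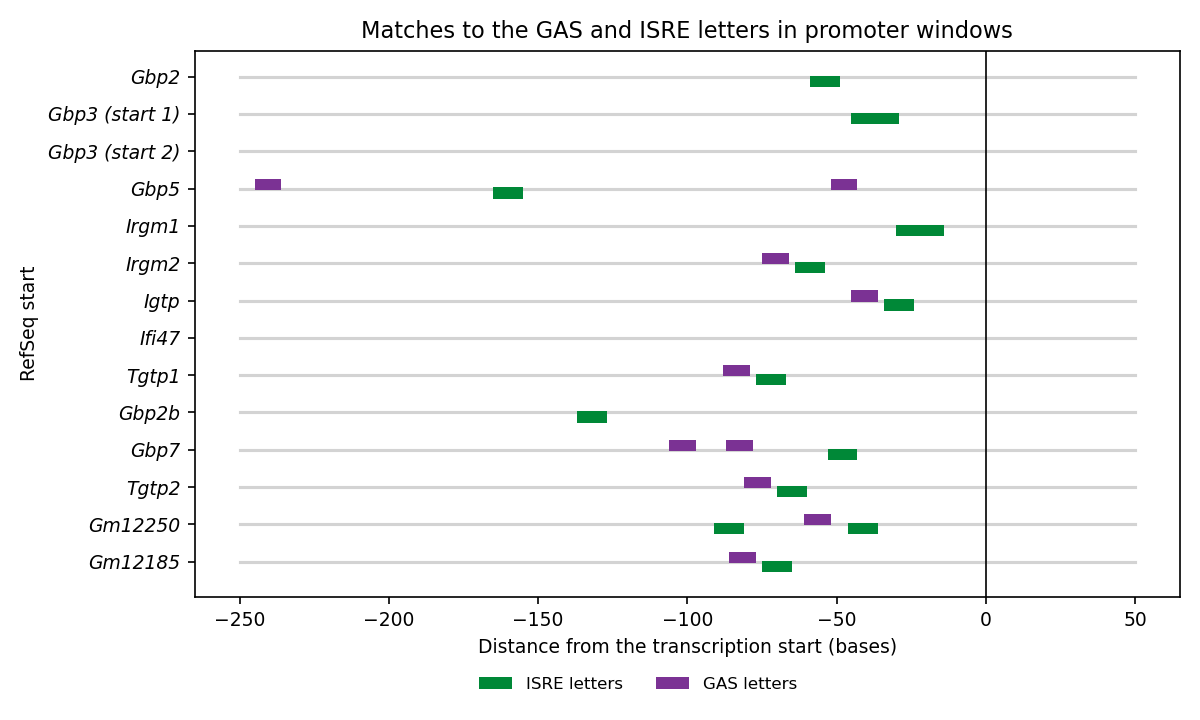
Each line is a RefSeq promoter window of a member or a related GTPase gene, from 250 bases before to 50 bases after the transcription start (x axis, bases). Purple blocks are GAS matches and green blocks are ISRE matches on either strand, and the adjoining pair is seen in Irgm2, Igtp, Tgtp1, Tgtp2 and Gm12185.

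The deposited measure is a processed signal, the intensity of a spot after its background was subtracted. It was divided by the 75th percentile of its array, and this normalized signal, in multiples of that percentile, is what the values below give unless a log2 ratio is named. A gene was represented by its brightest probe, and levels were never compared between probes. Between 50.9% and 55.4% of the probes were well above background on the 4 arrays. Of the 12 member probes, 10 were well above background on every array, and no spot was saturated. From probes spotted at least 8 times, the SD of repeated log2 ratios, here called technical, came to 0.10 for M1 over M2 and to 0.09 for both Lamtor1-deficient and Torin1-treated over M2, and it covers the spread within arrays only. A shift to the array median, in place of the 75th percentile, moved the median log2 ratio of all genes from 0.74 to -0.08 for M1 over M2 and from -0.05 to -0.30 for Torin1, and the share of higher genes among all changed 2-fold or more from 61.3% to 32.7% and from 54.8% to 38.9%. The targeted gene Lamtor1 had a normalized signal of 51.2 in M1, 66.3 in M2 and 1.55 in Lamtor1-deficient BMDMs, where it was 42.7-fold lower than in M2, and its log2 ratio after Torin1 was 0.18. All 9 macrophage markers measured, Csf1r, Cd68 and Lyz2 among them, were well above background on each array. Among them Fcgr1, an Fc receptor, and Emr1, which encodes F4/80, were lower by 2-fold or more after both Lamtor1 loss and Torin1. The M1 marker Nos2 had a log2 ratio of 10.56 for M1 over M2.

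The first comparison asked how far the GTPases separate classical from alternative polarization. In M1 BMDMs all 10 members were 2-fold or more higher than in M2 BMDMs and 0 were lower, where 30.6% of all genes were higher and 19.3% lower. The members' median log2 ratio was 6.06, with a range from 3.90 to 10.10, beside a median of 0.74 over all genes. Each member ranked among the highest ratios of the array, between percentile 97.5 (Ifi47) and percentile 99.9 (Gbp11) of 23345 genes, with dim M2 signals of other genes taken as measured. The 4 GBP members had a median log2 ratio of 7.23 and the 5 IRG members other than Tgtp1, which was not well above background in M2, one of 4.23. Over these 9 members together it was 5.92. For lists other than the members, a gene is counted as changed where both arrays were well above background and differed by 2-fold or more, or where its bound reached 2-fold, while medians include dim signals as measured. Between M1 and M2, 4 of 6 fibroblast markers and 6 of 7 neutrophil markers were lower in M1, and the fibroblast marker Dcn was 5.86-fold higher. Of 5 dendritic cell markers 3 were higher, with a summed normalized signal of 233 in M1 and 96.9 in M2. Nearly all of that sum was Siglech alone (232 in M1 and 96.7 in M2). The part of such cells in the GTPase levels was not tested.

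Among the GBPs, Gbp2, which marks vacuoles of Toxoplasma and other pathogens, had a normalized signal of 590 in M1 and 7.64 in M2, with 18.6 after Lamtor1 loss and 12.9 after Torin1 (probe A_51_P203955; chromosome 3, from 142300719 to 142300778 of mm9). It was 77.3-fold higher in M1 than in M2, and its M2 level was not near background. Gbp3 had 99.8 in M1, 3.83 in M2, 3.84 after Lamtor1 loss and 4.74 after Torin1 (probe A_55_P2472435; chromosome 3, from 142236032 to 142236091). Its M1 level was 26.1-fold above M2, and its 3 levels under IL-4 lay close together. Gbp5, which promotes NLRP3 inflammasome assembly, had 71.1 in M1, 0.244 in M2, 0.259 after Lamtor1 loss and 0.191 after Torin1 (probe A_52_P327664; chromosome 3, from 142184779 to 142184838). It was 292-fold higher in M1, and under IL-4 it stayed below the 75th percentile on each array. Gbp11 had 91.4 in M1, 0.0832 in M2, 0.297 after Lamtor1 loss and 0.054 after Torin1 (probe A_55_P2042813; chromosome 5, from 105752145 to 105752204). Its 1099-fold difference between M1 and M2 was the largest among the members. With another background correction (normexp), the log2 ratio for M1 over M2 was 8.70 in place of 10.10 for Gbp11 and 7.49 in place of 8.19 for Gbp5. The RefSeq table used here lists Gbp11 as a transcribed pseudogene and does not hold the accession that the array gives for it.

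Among the IRGM regulators, Irgm1 had a normalized signal of 184 in M1, 10.6 in M2, 22.4 after Lamtor1 loss and 29.9 after Torin1 (probe A_51_P262171; chromosome 11, from 48679069 to 48679128 of mm9). A dimmer probe for the same transcript (A_55_P1981479, from 48679632 to 48679691) was 17.5-fold higher in M1, 1.96-fold after Lamtor1 loss and 2.66-fold after Torin1, against 17.4-fold, 2.11-fold and 2.83-fold with the brighter one. The 2 probes therefore gave the same order of the 4 cultures. Irgm2 had 99.6 in M1, 5.29 in M2, 3.86 after Lamtor1 loss and 5.57 after Torin1 (probe A_55_P2137611; chromosome 11, from 58036093 to 58036152). Igtp, its neighbour on the chromosome, had 475 in M1, 7.85 in M2, 5.72 after Lamtor1 loss and 7.41 after Torin1 (probe A_51_P112355; from 58020927 to 58020986). The M1 level was 18.8-fold above M2 for Irgm2 and 60.6-fold for Igtp. Igtp is the only member spotted repeatedly, and its log2 normalized signal was 8.89 ± 0.02 in M1, 2.97 ± 0.07 in M2 and 2.51 ± 0.04 in Lamtor1-deficient BMDMs (SD over 10 spots each), and 2.89 ± 0.04 after Torin1 (SD over 9 spots). Its spots in Lamtor1-deficient BMDMs (2.45 to 2.59) lay below all those in M2 BMDMs (2.83 to 3.09), and those after Torin1 (2.84 to 2.95) lay within the M2 range.

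Among the effector IRGs, Ifi47 had a normalized signal of 179 in M1, 12.0 in M2, 15.1 after Lamtor1 loss and 19.8 after Torin1 (probe A_55_P1998416; chromosome 11, from 48910402 to 48910461 of mm9). At 14.9-fold, it had the smallest M1 difference of the members, although with normexp Tgtp1 (log2 ratio 3.69) lay below it (3.73). Iigp1, which coats vacuoles of Toxoplasma and Chlamydia, had 47.4 in M1, 0.598 in M2, 0.459 after Lamtor1 loss and 0.883 after Torin1 with its brighter probe (A_55_P2410304; chromosome 18, from 60551352 to 60551411). It was 79.4-fold higher in M1 than in M2. Its dimmer probe (A_55_P1990633, from 60550839 to 60550898) was 366-fold higher in M1, and it was not well above background in Lamtor1-deficient or Torin1-treated BMDMs, where it was at least 1.88-fold and 2.10-fold lower than in M2. After Torin1 the probes of Iigp1 thus disagreed in direction.

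**Figure D2:**
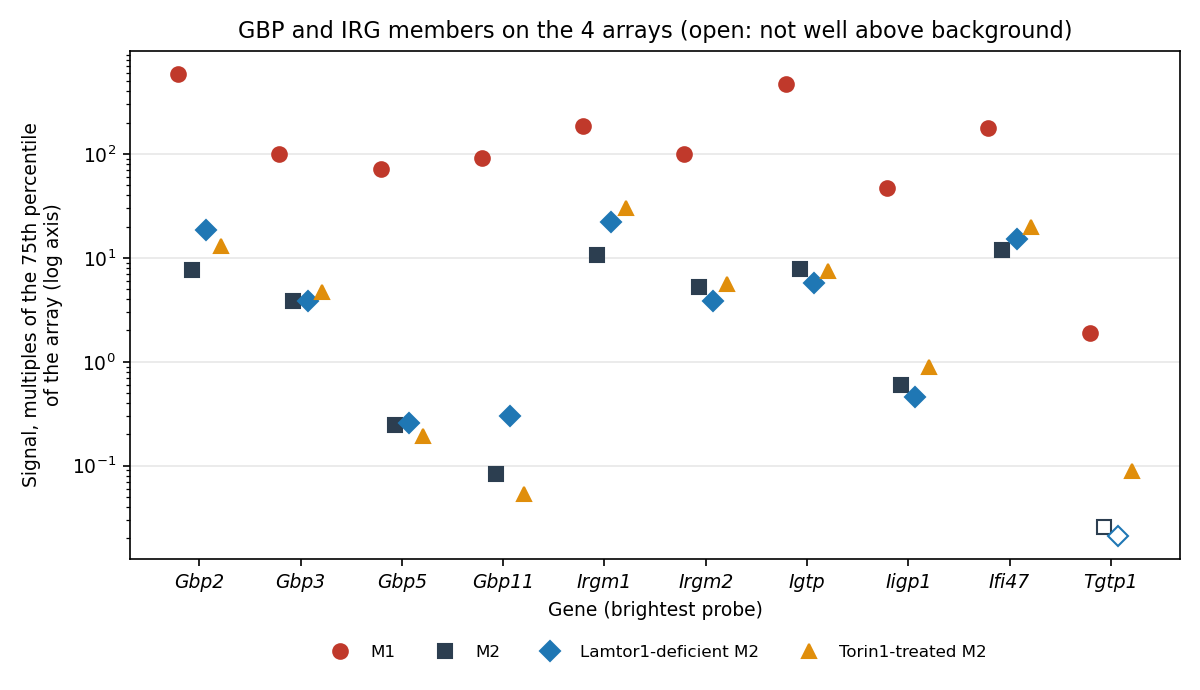
Normalized signal of each member (y axis, multiples of the 75th percentile of the array, log axis) with its brightest probe on the M1, M2, Lamtor1-deficient M2 and Torin1-treated M2 arrays. Filled points are well above background and open points are not, and each M1 point lies above the other 3 of its gene.

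Tgtp1 was measured through a single probe (A_51_P478722; chromosome 11, from 48799587 to 48799646 of mm9), whose annotation names transcripts of both Tgtp1 and its near-identical copy Tgtp2. It had a normalized signal of 1.88 in M1 and 0.0898 in Torin1-treated BMDMs, and it was not well above background in M2 (0.0254) or Lamtor1-deficient BMDMs (0.0212). It was therefore at least 51.6-fold higher in M1 and at least 2.47-fold higher after Torin1 than in M2, and no ratio is given for Lamtor1 loss. These bounds, like all others given here, hold for the background subtraction of the scanner software. With normexp the log2 ratio of Tgtp1 was 3.69 for M1 and 0.68 for Torin1, below both bounds. The array also has 2 probes under the name Tgtp2, and their annotation names both genes too. The first 30 bases of each probe are shown, since the probes differ in brightness and none can be assigned to 1 of the 2 genes from the annotation.
Tgtp1 probe A_51_P478722: cattaataaccccatgtgctaaccaaaccc
Tgtp2 probe A_55_P2062246: agaggattcatgctttcccttctcctgatc
Tgtp2 probe A_55_P1989225: ttacattctcactggcagccctgattgtca

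The Tgtp2 probe A_55_P2062246 was well above background on all arrays, with a normalized signal of 535 in M1, 2.82 in M2, 2.43 after Lamtor1 loss and 8.70 after Torin1. It was 190-fold higher in M1, while Lamtor1 loss gave a log2 ratio of -0.22 and Torin1 one of 1.63 (3.09-fold higher). Probe A_55_P1989225 was at least 32.1-fold higher in M1 and at least 1.61-fold higher after Torin1. All 3 probes of the pair were thus higher in M1 and after Torin1 than in M2. No other member probe names more than 1 RefSeq gene, but the Gbp11 probe names none, since its accession is not in the RefSeq table. Cross-hybridization among paralogues was not tested for any probe.

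The next comparison asked what loss of Lamtor1, a subunit of the Ragulator complex that anchors mTORC1 at lysosomes, changed under IL-4. Gbp11, Gbp2 and Irgm1 were 2-fold or more higher than in wild-type M2 BMDMs and 0 of 10 members were lower, where 8.91% of all genes were higher and 8.7% lower. Gbp11 rose from 0.0832 to 0.297, or 3.58-fold. Gbp2 rose from 7.64 to 18.6, or 2.43-fold, and Irgm1 from 10.6 to 22.4, or 2.11-fold. These levels remained below those in M1 BMDMs for each of the 3 genes. Another 6 members lay within 2-fold, and Tgtp1 had no signal well above background in this comparison. The median log2 ratio was 0.05 over all 10 and 0.09 without Tgtp1, beside 0.04 over all genes. Irgm2, Igtp and Iigp1 were slightly lower, with log2 ratios of -0.45, -0.46 and -0.38, and Ifi47 was slightly higher with 0.33, each more than 2 technical SDs from 0. Gbp3 (0.00) and Gbp5 (0.09) lay within 2 technical SDs of 0. By family, the median was 0.68 for the 4 GBP members and -0.38 for the 5 IRG members other than Tgtp1. With 3 other scalings and normexp, the log2 ratio ranged from 1.07 to 1.90 for Gbp11, from 1.18 to 1.35 for Gbp2 and from 0.97 to 1.14 for Irgm1.

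Markers of other cell types moved in the same comparison and after Torin1. Ifng, the gene of IFN-γ itself, was well above background only on the Lamtor1-deficient array (processed signal 61.5, against 6.52 in M1, 9.18 in M2 and 8.12 after Torin1), at least 3.16-fold above M2. Of 9 markers of T and NK cells, 8 were well above background in Lamtor1-deficient BMDMs, against 4 in M2 and 2 each in M1 and Torin1-treated BMDMs, and 5 of 9 were 2-fold or more higher than in M2. Their summed normalized signal was 3.98 in Lamtor1-deficient BMDMs, 2.65 in M2, 4.26 in M1 and 2.51 after Torin1. Most of each sum was Cd3e alone, with 2.11, 2.13, 3.59 and 1.78 in the same order. After Lamtor1 loss Cd3e and Cd2 had log2 ratios of -0.02 and -0.03. The NK cell receptor gene Ncr1 was at least 6.29-fold and the T cell receptor subunit gene Cd3d at least 4.35-fold above M2, while Klrb1c was not well above background on any array. Neutrophil markers moved the other way, with a summed normalized signal of 90.6 in M2, 6.35 in Lamtor1-deficient, 5.92 in Torin1-treated and 4.42 in M1 BMDMs, and 6 of 7 were 2-fold or more lower after Lamtor1 loss and after Torin1. Of 6 fibroblast markers, 2 were 2-fold or more higher after Lamtor1 loss, Dcn by 3.77-fold and Pdgfra by 2.74-fold, whereas 3 were lower after Torin1, and the summed signal was 43.2 in M2, 55.9 after Lamtor1 loss and 15.3 after Torin1. Among B cell markers, Cd79a was 3.57-fold lower after Lamtor1 loss and 3.05-fold lower after Torin1, and Cd79b was 11.3-fold lower after Torin1. Of 5 dendritic cell markers, 0 were 2-fold higher or lower after Lamtor1 loss and 1 was higher after Torin1. The part of these cells in the GTPase levels was not tested, and in bulk RNA fewer cells of a type and less RNA per cell cannot be told apart.

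Torin1 was then compared with IL-4 alone, a comparison in which the summed fibroblast and neutrophil markers were lower as given above, and their part in the result was not tested. Irgm1 and Tgtp1 were 2-fold or more higher and 0 of 10 members were lower, where 14.3% of all genes were higher and 11.8% lower. With normexp, Tgtp1 had a log2 ratio of 0.68 and was no longer 2-fold higher, which left Irgm1 alone. Irgm1 rose from 10.6 to 29.9, or 2.83-fold. The median log2 ratio was 0.44 over all 10 and 0.31 without Tgtp1, beside -0.05 over all genes. Gbp2 (0.76), Ifi47 (0.72), Iigp1 (0.56) and Gbp3 (0.31) lay above 0 by more than 2 technical SDs, and they kept this sign over 3 other scalings and normexp. Gbp11 (-0.62) and Gbp5 (-0.35) lay below 0, also with the same sign in those settings, although Gbp11 came to -0.07 with normexp. Irgm2 (0.08) and Igtp (-0.08) were within 2 technical SDs of 0, and both changed sign with another scaling. By family, the median was -0.02 for the 4 GBP members and 0.56 for the 5 IRG members other than Tgtp1. The latter is the value of Iigp1 with its brighter probe. With its dimmer probe, at least 2.10-fold below M2, the middle value is that of Irgm2 (0.08).

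**Figure D3:**
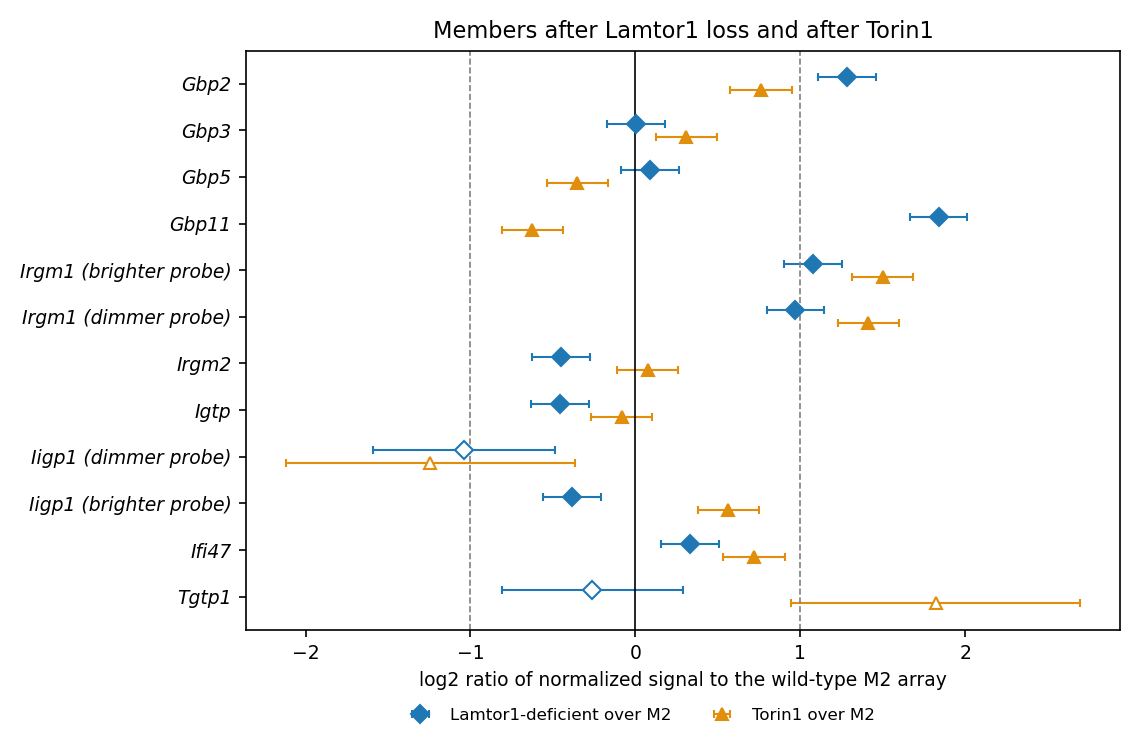
The log2 ratio of each member probe to the wild-type M2 array (x axis) after Lamtor1 loss (blue diamonds) and after Torin1 (orange triangles), with bars of 2 technical SDs of repeated spots in either direction. Dashed lines mark 2-fold, and open symbols are probes not well above background on at least 1 of the arrays compared, for which the wider SD of dim probes is drawn.

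Set in order, the 4 cultures ranked differently from member to member below M1, which was first for all 10. Lamtor1-deficient BMDMs came next for Gbp2, Gbp5 and Gbp11, though for Gbp5 they did not differ from M2 beyond 2 technical SDs. Torin1-treated BMDMs came next for Gbp3, Irgm1, Irgm2, Iigp1, Ifi47 and Tgtp1, and for Irgm2 they did not differ from M2 beyond that spread. For Iigp1 this holds with the brighter probe only. With the dimmer probe M2 came next (0.0705), and Lamtor1-deficient and Torin1-treated BMDMs were not well above background. For Igtp, M2 and Torin1-treated BMDMs came next and lay within that spread of each other, above Lamtor1-deficient BMDMs. For Gbp3, M2 and Lamtor1-deficient BMDMs could not be ordered, and for Tgtp1 they were both not well above background. Irgm1, Gbp2 and Ifi47 stood above M2 by more than that spread in both the Lamtor1-deficient and the Torin1-treated culture, Irgm1 by 2-fold or more in each, Gbp2 by 2-fold or more in the former and Ifi47 in neither. This order depends in part on the scaling. With arrays aligned on their medians, Gbp3 had log2 ratios to M2 of 0.06 after Torin1 and 0.07 after Lamtor1 loss, so that its order turned, and Irgm2 after Torin1 lay below M2 (-0.17). In that setting Irgm1 (1.25 after Torin1, 1.14 after Lamtor1 loss) and Ifi47 (0.47 and 0.39) no longer separated the 2 cultures beyond 2 technical SDs. Igtp after Torin1 then lay below M2 by more than 2 technical SDs (-0.33) and within that spread of Lamtor1-deficient BMDMs (-0.39). Both treatments were set against the same M2 array, so that its own error enters both ratios.

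The other genes of the families were read in the same way, with array names replaced by RefSeq names where the accession gives one. All 7 other GBPs were 2-fold or more higher in M1 than in M2 (median log2 ratio 6.33), among them Gbp4 (at least 629-fold), Gbp8 (at least 434-fold), Gbp6 (321-fold, or 14.5-fold with the probe annotated to Gbp6 alone, listed as Mpa2l), Gbp7 (80.4-fold, listed as Gbp6), Gbp9 (78.0-fold), Gbp2b (36.5-fold, listed as Gbp1) and Gbp10 (4.18-fold). The annotation of the Gbp10 probe and of the brightest Gbp6 probe names both genes. After Lamtor1 loss 2 of 7 were higher and 2 lower, and the 4 that were well above background on both arrays had a median of -0.89. After Torin1 1 was higher and 1 lower, with a median of 0.07 over the same number. Over all 7, dim signals included, the medians were -0.45 after Lamtor1 loss and -0.15 after Torin1. Gbp6 had a normalized signal of 98.0 in M1, 0.305 in M2, 1.00 after Lamtor1 loss and 3.54 after Torin1, so that it stood above M2 by 3.28-fold and 11.6-fold. The probe annotated to Gbp6 alone gave 1.58-fold and 6.78-fold. Gbp9 went the other way, with 45.6 in M1, 0.584 in M2, 0.177 after Lamtor1 loss and 0.113 after Torin1, 3.31-fold and 5.16-fold below M2. Gbp7 was 2.49-fold lower after Lamtor1 loss and had a log2 ratio of -0.15 after Torin1. Gbp2b was at least 1.64-fold and 1.83-fold lower after the 2 treatments, Gbp8 was at least 2.03-fold higher after Lamtor1 loss, and Gbp4 was well above background in M1 BMDMs only. Members of the cluster on chromosome 5 (Gbp6, Gbp9, Gbp11) thus lay on both sides of M2 after Lamtor1 loss, and so did those on chromosome 3 (Gbp2, Gbp7).

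Of 13 other IRGs and related large GTPases, 10 were 2-fold or more higher in M1 than in M2 (median log2 ratio 2.48). After Lamtor1 loss 0 were higher and 4 lower (median -0.79), and after Torin1 1 was higher and 2 lower (median 0.07). Irgc1 was not well above background on any array. Next to Igtp and Irgm2, Gm12250 (Irgb10) had a normalized signal of 2.55 in M1, 1.19 in M2, 0.632 after Lamtor1 loss and 1.56 after Torin1, and after Lamtor1 loss all 3 genes of this stretch had log2 ratios below 0 (-0.91 for Gm12250). Gm5431, in the other cluster on chromosome 11, was 4.13-fold lower after Lamtor1 loss with a log2 ratio of 0.07 after Torin1, and its dimmer probe gave 6.01-fold lower and 0.19. In the same cluster, 9930111J21Rik1 had log2 ratios of -0.75 and -0.24 after the 2 treatments (-1.03 and -0.19 with a dimmer probe that also names Gm5431) and 9930111J21Rik2 had -0.34 and -1.04, and Gm12185 was well above background in M1 BMDMs only. Gm4951 was 64.9-fold and F830016B08Rik 136-fold higher in M1, and after Lamtor1 loss Gm4951 had a log2 ratio of -0.89 and F830016B08Rik was at least 1.22-fold lower. Irgq, an IRG relative without interferon control, had -0.27 in M1, 0.46 after Lamtor1 loss and 0.32 after Torin1. Gvin1, a very large interferon-inducible GTPase, had log2 ratios of 0.87 in M1, -1.17 after Lamtor1 loss and -1.40 after Torin1, with a probe that also names Gm8979 and Gm8989. The dimmer probe, annotated to Gvin1 alone, gave -0.38 in M1, the opposite direction, and -1.81 and -1.62 after the 2 treatments. The Mx proteins, antiviral GTPases that type I interferons induce, were lower after Lamtor1 loss, with log2 ratios of -3.37 (Mx1) and -2.20 (Mx2), and had -0.93 and 0.77 after Torin1.

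**Figure D4:**
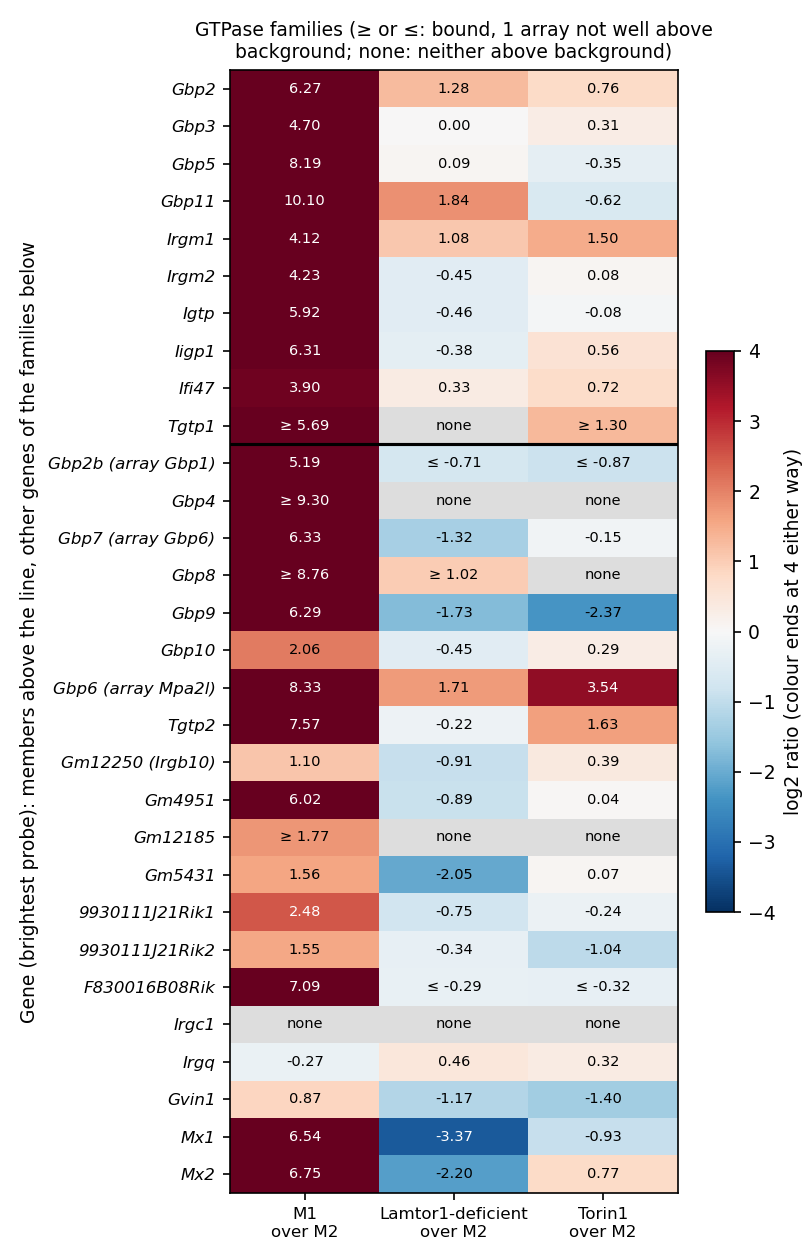
Log2 ratios of the members (above the line) and of the other genes of the families (below) in 3 comparisons with the wild-type M2 array, with the brightest probe of each gene. Red is higher and blue lower, the colour ends at 4 in either direction, bounds are given where 1 array was not well above background, and grey cells have no ratio because neither array was.

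The genes of the IFN-γ pathway were read from lists written for this purpose. Of 12 genes of the receptor and signalling list, 4 were 2-fold or more higher and 3 lower in M1 than in M2 (median log2 ratio 0.34). Of all genes, 30.6% were higher and 19.3% lower (median 0.74). Batf2 (4.50) and Irf1 (3.74), both transcription factors, were at the top of the list. Ciita (-1.52), the regulator of MHC class II, and Ifngr1 (-1.38), the ligand-binding receptor chain, were at the bottom. After Lamtor1 loss 1 was higher and 2 lower (median -0.09), namely Ifng as given above, Ciita (-2.43) and Irf2 (-1.05), and the next highest was Nlrc5 (0.65), the regulator of MHC class I. After Torin1 1 was higher and 3 lower (median 0.23). Irf1 had a normalized signal of 657 in M1, 49.3 in M2, 57.5 after Lamtor1 loss and 138 after Torin1, 2.79-fold above M2 after Torin1. The lowest after Torin1 were Ciita (-2.71) and Jak2 (-1.73), a receptor-bound kinase. Among 7 brakes on interferon signalling, Socs3 was higher in each comparison (8.59 in M1, 1.74 after Lamtor1 loss, 1.42 after Torin1). Socs1, which blocks the IFN-γ receptor, had 15.3 in M2 and 3.44 after Torin1, a log2 ratio of -2.15, and one of -0.66 after Lamtor1 loss.

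Of 12 IFN-γ-induced genes outside the GTPases, 11 were 2-fold or more higher in M1 (median log2 ratio 4.88). After Lamtor1 loss 4 were higher and 1 lower (median 0.20), and after Torin1 4 were higher and 1 lower (median 0.59). Nos2, the inducible nitric oxide synthase, led both with log2 ratios of 5.60 and 5.42, and Cd274, which encodes PD-L1, followed after Lamtor1 loss with 2.35. Ubd was at least 17.8-fold higher after Torin1. The chemokine gene Cxcl10 was lower after both treatments, 5.34-fold after Lamtor1 loss and at least 10.9-fold after Torin1, and Cxcl9 was at least 1.71-fold lower after Lamtor1 loss. For comparison, 0 of 18 type I interferon-stimulated genes were higher and 10 lower after Lamtor1 loss (median -1.21), whereas 7 were higher and 0 lower after Torin1 (median 0.88). The members' own medians were 0.05 and 0.44, and no test of the difference between the lists was possible with 1 array per condition.

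**Figure D5:**
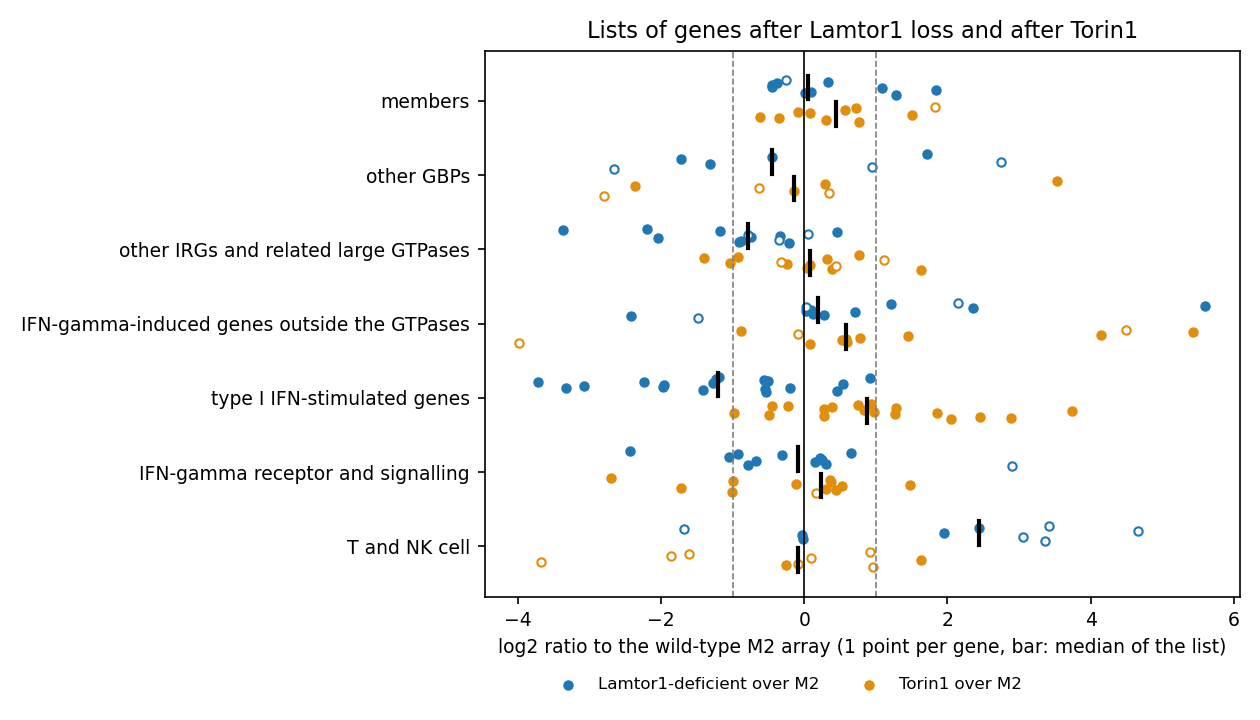
Log2 ratios to the wild-type M2 array (x axis) for the genes of 7 lists after Lamtor1 loss (blue) and after Torin1 (orange), 1 point per gene, with black bars at the list medians. Open points are genes not well above background on at least 1 of the arrays compared, and the type I interferon-stimulated genes have medians of -1.21 and 0.88 where the members have 0.05 and 0.44.

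The genes nearest to the members' median profile were sought by the Euclidean distance between log2 levels after each gene was centred on its own mean, over the 12867 genes that no array left near background. The 5 nearest genes outside the members were Slco4a1 (distance 0.46), Rassf8 (0.47), Tnfsf9 (0.48), Dusp10 (0.49) and Il12rb1 (0.49). Their log2 ratios for M1 over M2 lay between 5.37 (Slco4a1) and 6.36 (Il12rb1). Tnfsf9 and Il12rb1, a costimulatory ligand and a chain of the IL-12 receptor, were the ones among them 2-fold or more higher after Torin1 (1.30 and 1.08), and none was so after Lamtor1 loss, where Il12rb1 had 0.98. The likeness rests on 4 values per gene, of which M1 differs most.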

How the data were processed

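Gene expression was measured on 4 Agilent mouse arrays, with 1 array each for M1, M2, Lamtor1-deficient M2 and Torin1-treated M2 BMDMs. The authors deposited scanner files whose processed signal is an intensity per spot, background-subtracted and detrended but not normalized between arrays, and a series table of the same signals, which differed by at most 0.497%. Feature Extraction is named as version 10.5.1.1 in the submitters' processing notes and 10.7.3.1 in the file headers. From the deposited intensities, control and outlier spots were left out, spots of a probe averaged, each array divided by its 75th percentile over non-control probes, and log2 ratios taken to the M2 array, after the percentile shift in the study's methods. A gene was counted by its brightest probe over the 4 arrays and as changed at 2-fold or more. A probe not well above background on 1 array gives a bound against the higher of its own signal and the lowest signal well above background there, which was 18.8 (M1), 21.6 (M2), 20.1 (Lamtor1-deficient) and 15.7 (Torin1). Each bound holds for the background subtraction of the scanner software, and another correction can give a smaller ratio. Counts over members and all genes, and medians unless stated, include dim probes, and counts over other lists need a measured or bounding change of 2-fold. No test was made, and precision is limited by having 4 arrays.

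The members and gene lists were chosen with earlier results of these data known. Named genes were all members with every probe, Lamtor1, every measured gene of the 2 family lists, the 2 highest and 2 lowest of other pathway lists, macrophage and M1 markers, and the 5 nearest profiles, and any further gene was chosen with its values in view. Some genes that this rule covers are not reported here. Probes carry mm9 coordinates from the array annotation, and names were updated through accessions of the RefSeq table (GRCm38.p6), which holds those of 11 of 12 member probes. Promoter windows are from RefSeq on GRCm38.p6, and those on chromosome 18 were left out for members and other family genes. Procedures were tested on simulated data. The software was Python 3.11.15 (pandas 2.3.3, NumPy 2.4.6, matplotlib 3.10.9), with limma 3.58.1 under R 4.3.3 for the normexp and quantile alternatives. Other alternatives changed the scaling, the floor, the probe chosen for a gene, the filter on dim probes and the fold threshold.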

Additional observations from a re-analysis of the deposited data

Results flagged for a closer look

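The treatments moved 2 members in opposite directions, each by more than 2 technical SDs. For Gbp11 the log2 ratio to M2 was 1.84 in the Lamtor1-deficient culture and -0.62 with Torin1, a difference of 2.46. Its ratio after Torin1 was -0.07 with normexp background correction. Iigp1 had -0.38 after Lamtor1 loss and 0.56 after Torin1 with its brighter probe, a difference of -0.95, while its dimmer probe was below the M2 level after both. These differences between treatments were not tested, since each condition has 1 array and both are set against the same M2 array.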

How the results depend on the processing

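In M1, 10 members were higher and 0 lower under each alternative tried, except that 9 were counted with probes well above background on both arrays and without Tgtp1, which those alternatives leave out. Their median log2 ratio of 6.06 for M1 over M2 became 5.24 when arrays were aligned on their medians, 5.76 with quantile normalization, 5.14 with normexp background correction, 5.80 when dim signals were raised to the lowest one well above background, and 5.92 both with probes well above background on both arrays and without Tgtp1, an alternative added after the data had been seen. After Lamtor1 loss, 1 member in place of 3 was higher at a 3-fold threshold and 2 with quantile normalization or the dimmest probe, where Irgm1 came to 0.97 on the log2 scale, and 1 in place of 0 was lower with the dimmest probe of each gene (Iigp1), while the median stayed within the technical SD of its value. After Torin1, 1 member in place of 2 was higher with normexp (Tgtp1 was lost at 0.68), at a 3-fold threshold, with probes well above background on both arrays and without Tgtp1, and 1 in place of 0 was lower with the dimmest probe. The median of 0.44 after Torin1 became 0.19 with a shift to the array median, 0.31 with probes well above background on both arrays or without Tgtp1, and 0.19 with the mean over all probes or the dimmest probe. Of the other values, 59 of the members' log2 ratios under an alternative moved by more than the technical SD, 294 did not, and none that was 2-fold or more in the values given above changed sign. Iigp1 after Torin1, at 0.56 with its brighter probe, came to -1.24 with the dimmer one. Why these values moved was not tested. Signal over background limits Tgtp1, the dimmer Iigp1 probe, Gbp4 and Gbp8, for which only bounds or no ratio can be given under IL-4. No paired analysis was possible because each group has 1 array, and no replicate could be left out for the same reason.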

Other observations

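GBPs and IRGs reach pathogen vacuoles with the help of ubiquitin and of the ATG8 conjugation system, and 13 genes of this machinery were measured. In M1 BMDMs 5 were 2-fold or more higher than in M2 and 1 lower (median log2 ratio 0.66). Of all genes, 30.6% were higher and 19.3% lower (median 0.74). Map1lc3a (2.79) and Trim21 (2.07) were at the top of the list and Gabarapl1 (-1.01) and Atg7 (-0.95) at the bottom. After Lamtor1 loss 2 of 13 were higher and 2 lower (median 0.40), where 8.91% of all genes were higher and 8.7% lower. They were Atg7 (2.17-fold) and Atg12 (2.14-fold) above and Atg16l1 (3.73-fold) and Trim21 (2.76-fold) below. After Torin1 5 of 13 were higher and 1 lower (median 0.86), where 14.3% of all genes were higher and 11.8% lower. Map1lc3a (2.09) and Traf6 (1.72) were at the top. Atg16l1, a subunit of the complex that attaches ATG8 proteins to membranes, had a normalized signal of 15.0 in M1, 9.50 in M2, 2.55 after Lamtor1 loss and 2.77 after Torin1, so that it was the lowest of the list after both treatments (-1.78 after Torin1).

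Of 9 genes of the inflammasome pathway that GBPs feed into, 5 were 2-fold or more higher in M1 BMDMs and 0 lower (median log2 ratio 1.31). Of all genes, 30.6% were higher and 19.3% lower (median 0.74). Casp4 (4.71), the sensor of cytosolic LPS, and Il1b (4.06) led the list. After Lamtor1 loss 0 were shown to be 2-fold higher or lower (median -0.22), and after Torin1 0 were higher and 1 lower (median -0.30). Il1b was the lowest in both, at least 1.82-fold below M2 after Lamtor1 loss and at least 2.03-fold after Torin1. Casp4 had log2 ratios of 0.35 and 0.64. Among 8 genes of the type I interferon receptor and its signalling complex, Ifnb1 was at least 1149-fold higher in M1, and Irf7 had log2 ratios of 6.01 in M1, -2.43 after Lamtor1 loss and 0.80 after Torin1.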
